A study of Homo sapiens with 6 samples.

Results

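ANGPTL4 and 8 further lipid genes of the PPAR pathway were followed in MDA-MB-231 cells treated with riluzole or with vehicle. The 9 genes are the receptors PPARA, PPARD and PPARG, and ANGPTL4, PLIN2, PDK4, CPT1A, ACADVL and ETFDH, of 30818 gene names on the array. They were found by gene symbol in the table of raw signals, and all 23 of their probes are described separately. MDA-MB-231 is an established human triple-negative breast cancer line. The riluzole group received riluzole at 25 µM, and the vehicle group received the solvent DMSO, with 3 samples each and 1 single-colour Illumina bead array per sample. The sample labels give 24 hours for both treatments, while the series title speaks of an overnight treatment. All cells grew in RPMI medium with serum, and the labels do not say whether the samples of a group were separate cultures, so the spread between them may be technical. The genes were chosen with the riluzole and vehicle values already known, so their values are given as a description and support no test.

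PPARs are nuclear receptors that bind fatty acids and related lipids, pair with an RXR partner and switch on genes of fatty acid use and storage. Classical targets across tissues include the secreted lipase inhibitor ANGPTL4, the lipid droplet coat protein PLIN2, the kinase PDK4, which holds back pyruvate dehydrogenase, and CPT1A, which admits long-chain fatty acids to mitochondria. ANGPTL4 is also known as a gene induced by low oxygen and by glucocorticoids, so it is not a reporter of PPARs alone. Riluzole itself is a glutamate release inhibitor given to patients with motor neuron disease.

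The arrays were alike in depth, with 20516 to 20959 of 47231 probes detected on each, where detected means a detection p under 0.05 against the 770 negative control probes of the same array. Negative controls averaged 107 to 111 signal units per array, so a raw signal near that range is background. Of 5 markers of this kind of line, 5 had a probe detected on all 6 arrays, VIM, CD44, AXL, CAV1 and KRT18. These genes were not all level between the groups. CD44 probe ILMN_1778625, the dimmest for its gene, was 1.76-fold higher with riluzole (limma adjusted p = 0.0315). Other probes missed the threshold but showed no overlap between groups on the log2 scale. These were the brighter CD44 probes ILMN_2348788 and ILMN_1803429, 1.22-fold and 1.18-fold higher (0.304 and 0.305). KRT18 probe ILMN_1803408 was 1.74-fold lower (0.0789), and both AXL probes were 1.32-fold and 1.29-fold lower (0.191 and 0.234). The groups overlapped on KRT18 probe ILMN_1730848, at a log2 difference of -0.09. Results under the alternative settings are not given here for the probes of these genes. No probe of ESR1, PGR or FOXA1 was detected on any array, whereas GATA3 was detected and ERBB2 was detected with 1 of its 3 probes. Of the markers of other cells, PTPRC, CD3E, ADIPOQ, PLIN1 and FABP4 were detected on no array, whereas CD14 and the adipocyte hormone gene LEP each had a probe detected on all 6. The detected LEP probe averaged 8.40 ± 0.29 with riluzole and 7.74 ± 0.34 with vehicle (log2 level, SD, n = 3 each). The summed raw signal of the 5 adipocyte marker probes was 831 to 948 on the riluzole arrays and 712 to 824 on the vehicle arrays, a gap that lay mostly in that LEP probe, as the other 4 were detected on no array. The sums overlapped for the leukocyte markers (1679 to 2086 with riluzole and 1567 to 1874 with vehicle). They also overlapped for the luminal and hormone receptor markers (2079 to 2208 and 2016 to 2187). The same held for the genes expected in the line (141931 to 159620 and 149098 to 171676). The part of other cell types in the results was not tested.

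The clearest difference lay in ANGPTL4, on 1 of its 3 probes. Probe ILMN_1707727 was 4-fold higher with riluzole after background correction, whereas probe ILMN_2386444 of the same gene was 1.14-fold higher, with overlapping groups. PLIN2, PDK4, ACADVL and ETFDH lay higher with riluzole by smaller amounts, between 1.26-fold and 1.61-fold per probe. Both detected PPARG probes were lower with riluzole, by 1.14-fold with overlapping groups and by 1.3-fold with separate ones. PPARA was near or below detection, and the groups overlapped on every CPT1A probe. In bulk samples, a change in the RNA of every cell and a change in the share of cells that hold it cannot be told apart.

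Of the 23 probes, 16 were detected on at least 3 of the 6 arrays and were kept for the fit, and these represent 8 of the 9 genes, all but PPARA. The filter counts arrays of either group, so a probe could pass through the group in which it is high. Of the 16 kept probes, 1 had an adjusted p under 0.05 in limma's fit across all 20788 kept probes, ANGPTL4 probe ILMN_1707727, where 0.698% of all kept probes did (0.457% higher and 0.241% lower with riluzole). The 3 riluzole arrays lay above the 3 vehicle arrays on 8 of the 16, against 11% of all kept probes, and below them on 1 of the 16, against 10.9%, which is 9 of the 16 apart in either direction, against 21.8%. The genes were picked from this same contrast, so nothing is read from these shares. The median log2 difference, riluzole minus vehicle, was 0.36 over the 16 probes and -0.0036 over all kept probes.

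**Figure D1:**
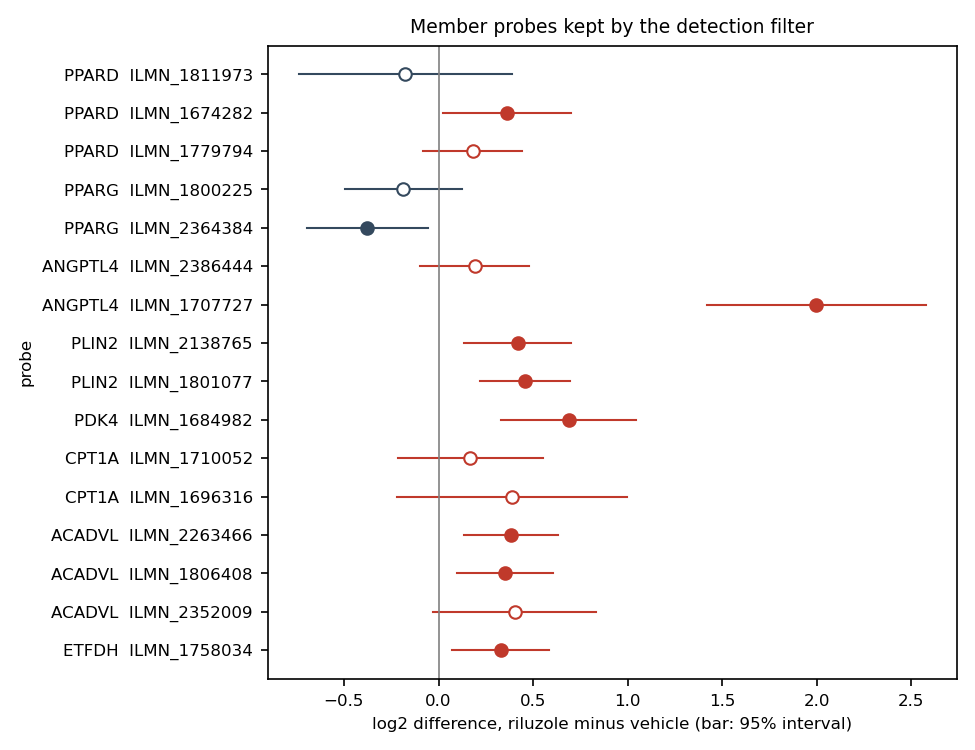
log2 difference (riluzole minus vehicle, x axis) of the 16 kept probes, one per row, with 95% intervals from limma's fit. Filled points mark probes whose 3 riluzole arrays do not overlap the 3 vehicle arrays, and open points mark overlap. Blue marks negative and red positive differences, and ANGPTL4 probe ILMN_1707727 stands at 2.00, with every other probe between -0.38 and 0.69.

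ANGPTL4 encodes a secreted protein that inactivates lipoprotein lipase and so limits the uptake of fatty acids from circulating triglycerides. Its promoter window is shown because ANGPTL4 carries the largest difference, and the windows of PDK4 and PLIN2 because these targets also lay higher on all their probes. ACADVL lay higher on all its probes too, but its windows are not shown. The sequences are RefSeq windows of GRCh38.p14 that run from 250 bases before to 50 bases after the annotated start, written 5′ to 3′ on the strand of the gene. The table matched 8 of the 9 genes (not ETFDH), with 15 windows in all. Capitals mark exact matches to the motifs searched. These were the nuclear receptor half-site AGGTCA and the PPAR-RXR direct repeat of that half-site, with 1 base of any kind between the copies. The others were the hypoxia response core, searched only as ACGTG and in no other spelling, and the TATA box TATAAA. All but the TATA box were searched on both strands, and the TATA box on the gene strand. Where ACGTG matches of both strands overlap, they form 1 run of capitals.
ANGPTL4, chr19:8363905-8364204, plus strand: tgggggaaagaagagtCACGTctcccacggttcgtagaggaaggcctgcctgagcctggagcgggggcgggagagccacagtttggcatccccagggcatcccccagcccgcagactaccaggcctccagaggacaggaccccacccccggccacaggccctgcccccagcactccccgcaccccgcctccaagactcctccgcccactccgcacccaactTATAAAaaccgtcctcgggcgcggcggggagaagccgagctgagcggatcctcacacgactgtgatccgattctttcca
PDK4, chr7:95596467-95596766, minus strand: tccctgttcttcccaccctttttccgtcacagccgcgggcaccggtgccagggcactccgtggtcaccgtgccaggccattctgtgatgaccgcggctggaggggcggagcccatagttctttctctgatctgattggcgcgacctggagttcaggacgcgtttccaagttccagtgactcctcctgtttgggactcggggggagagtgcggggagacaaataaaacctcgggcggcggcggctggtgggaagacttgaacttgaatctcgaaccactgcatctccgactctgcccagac
PLIN2, chr9:19127443-19127742, minus strand: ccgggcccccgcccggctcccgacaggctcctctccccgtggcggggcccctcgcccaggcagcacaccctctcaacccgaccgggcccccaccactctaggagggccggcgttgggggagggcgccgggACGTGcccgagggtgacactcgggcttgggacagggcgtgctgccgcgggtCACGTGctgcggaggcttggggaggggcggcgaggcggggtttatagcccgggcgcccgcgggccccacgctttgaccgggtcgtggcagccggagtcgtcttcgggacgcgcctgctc

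The full direct repeat was in 0 of the 15 windows and in 0.0228% of all 35116 windows of the same length in the table. The ANGPTL4 window held TATAAA at base -29 from the start, as 7.33% of all windows hold it somewhere, and 1 ACGTG core read on the opposite strand. The PLIN2 window held 3 ACGTG matches, 2 of them overlapping in 1 palindrome, and the PDK4 window held none of the motifs. Of the windows not shown, 1 ACADVL window held ACGTG at base -20 and 1 PPARG window held it, read on the opposite strand, at base -140. ACGTG occurs on either strand in 21.4% of all windows, and windows without it were not searched for other spellings of the core. The half-site AGGTCA was found in 3 PPARG windows, 2 of which overlap and share the match, and in no window of the other genes, and in 13.8% of all windows. A match of letters is not evidence of a bound site, and a window without one says nothing about the receptor.

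Probe ILMN_1707727 of ANGPTL4 gave raw signals of 330.2, 445 and 374 on the riluzole arrays and 143, 161 and 199 on the vehicle arrays. Every riluzole array stood above every vehicle array, and the lowest vehicle array, replicate 1, was only just detected, at a detection p of 0.0429. The raw signal averaged 383 ± 58.2 with riluzole and 168 ± 28.4 with vehicle (SD, n = 3 each), a ratio of 2.28. After background correction the log2 levels were 7.99, 8.37 and 8.18 with riluzole, against 5.65, 6.15 and 6.74 with vehicle. The log2 difference was 2.00 (95% interval 1.42 to 2.58), which is 4-fold on that scale. The vehicle arrays were the more scattered group, with an SD of 0.54 log2 units, against 0.19 for riluzole.

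The size of this difference moved with the treatment of background. Quantile normalization of the raw signals with no background correction gave a log2 difference of 1.20. The authors' processed values for the probe were 208, 277 and 239.9 on the riluzole arrays and 31.1, 50.4 and 81.7 on the vehicle arrays, and gave 2.25. Leaving out 1 array at a time gave differences of 1.73 to 2.28. The adjusted p in limma was 0.0215 with all arrays, and it rose above 0.05 in limma without riluzole replicate 1 (0.0632), riluzole replicate 2 (0.0764), riluzole replicate 3 (0.092) or vehicle replicate 2 (0.0843). With all arrays, it was also above 0.05 in limma on the authors' processed values (0.0596). Over all kept probes, 145 passed the threshold with all arrays and 7 to 23 without 1 array. The rise in adjusted p without an array is therefore not particular to this probe. None of these values is a test of a gene chosen for its difference.

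The second detected ANGPTL4 probe, ILMN_2386444, gave raw signals of 225, 224 and 224 on the riluzole arrays and 203, 202 and 225 on the vehicle arrays. The riluzole arrays were nearly identical, and the third vehicle array reached the same level. Its log2 levels averaged 7.05 ± 0.11 with riluzole and 6.86 ± 0.17 with vehicle, a log2 difference of 0.19 (95% interval -0.10 to 0.48). The upper end of that interval lies below the lower end of the interval of ILMN_1707727. The difference between the 2 probes was not tested. Which transcripts each probe reads was not analysed here.

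The third probe of the gene, ILMN_1674376, was detected on none of the 6 arrays. It gave raw signals of 124, 136 and 131 on the riluzole arrays and 111, 114 and 93.4 on the vehicle arrays. The riluzole arrays again lay above the vehicle arrays, but no value was told apart from the negative control probes. No fold is given for a probe that is below detection in both groups.

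**Figure D2:**
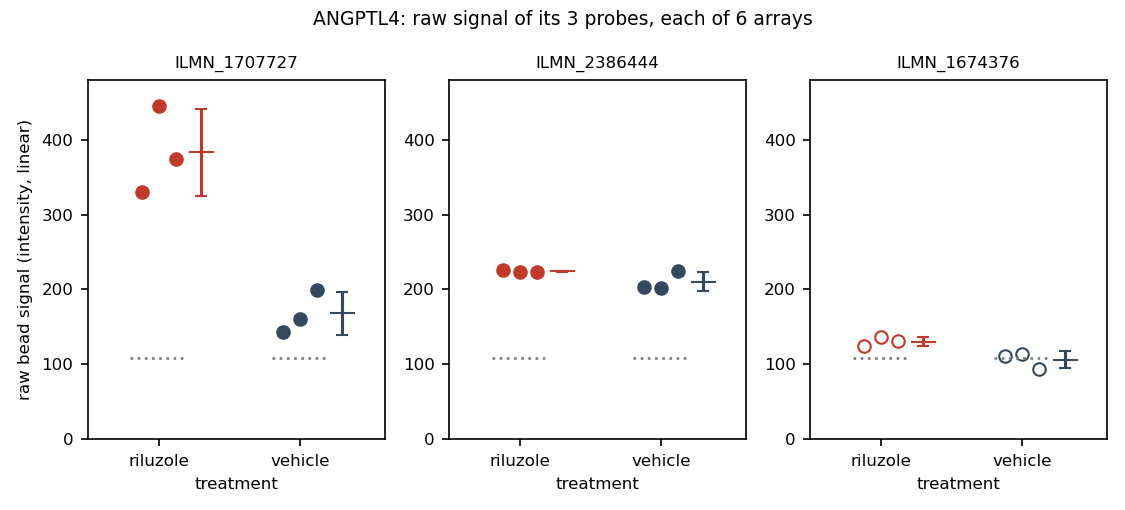
Raw bead signal (y axis, linear, from 0) of the 3 ANGPTL4 probes on each riluzole and vehicle array. Points are arrays, filled where detected and open where not, crossbars are means with SD (n = 3), and dotted lines are the mean negative control signal. On ILMN_1707727 the riluzole arrays sit between 330.2 and 445, while on ILMN_2386444 both groups lie between 202 and 225.

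The profile of ILMN_1707727 over the 6 arrays was closest to that of ADM2, a peptide of the adrenomedullin family, with a root mean square difference of 0.359 log2 units after each profile was centred on its own mean. Next came the small nucleolar RNA SNORD46 (0.367), LOC100170939 (0.395), LOC728844 (0.441) and LOC153561 (0.462). All 5 were higher with riluzole, by 1.46 to 1.95 log2 units. The profile holds the gap for which ANGPTL4 was chosen, so this nearness is a description and supports no test. The median distance over the 14886 other genes, each at its brightest kept probe, was 1.06. That is near the spread of ILMN_1707727 itself over the arrays (1.05), the distance to a flat profile. None of the other 8 genes of the set was among these 5.

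PPARA, the receptor of fatty acid oxidation in liver, has 3 probes, of which 2 were detected on no array and 1 on a single array per group. That probe, ILMN_2362847, gave raw signals of 119.6, 146 and 139 on the riluzole arrays and 152, 135 and 127 on the vehicle arrays. The groups overlapped on that probe. The other PPARA probes, ILMN_1700488 and ILMN_1659346, stayed between 90.4 and 119. On ILMN_1700488 the riluzole arrays all lay below the vehicle arrays, but no value was told apart from the negative control probes. PPARA transcript was therefore near or below detection in both groups.

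PPARD, the broadly expressed receptor, was detected on all arrays with 1 probe, ILMN_1674282. Its raw signals were 357, 371 and 391 on the riluzole arrays and 281, 320.2 and 347 on the vehicle arrays. The groups did not overlap, and the log2 levels averaged 8.14 ± 0.11 with riluzole and 7.78 ± 0.25 with vehicle. The log2 difference was 0.36 (95% interval 0.03 to 0.70), or 1.29-fold. The 2 other kept PPARD probes were dim and their groups overlapped on the log2 scale. ILMN_1779794, detected on 3 riluzole arrays and 2 vehicle arrays, gave 0.18 (95% interval -0.08 to 0.44). ILMN_1811973, detected on 1 riluzole array and 2 vehicle arrays, gave -0.18 (-0.74 to 0.39). Neither of these dim probes was detected on every array and both intervals include 0, so their signs carry little information. The intervals of the 3 PPARD probes overlap one another.

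PPARG, the receptor best known for fat cell differentiation, has 4 probes, of which ILMN_1800225 and ILMN_2364384 were detected on all 6 arrays and ILMN_1687612 and ILMN_1679901 on none. Probe ILMN_1800225 gave raw signals of 1208, 1689 and 1571 on the riluzole arrays and 1862, 1543 and 1716 on the vehicle arrays. The groups overlapped, because only riluzole replicate 1 fell clear of the vehicle arrays. The log2 difference was -0.19 (95% interval -0.49 to 0.12), and without riluzole replicate 1 it was -0.072. Probe ILMN_2364384 gave 338, 386 and 292 on the riluzole arrays and 446, 386 and 417 on the vehicle arrays. Here the riluzole arrays all lay below the vehicle arrays, with almost equal raw signals for replicate 2 of each group, and the log2 difference was -0.38 (-0.70 to -0.06). The 2 undetected probes held raw signals between 67.4 and 101. The RefSeq table lists 6 windows for PPARG starts, and which of its transcripts each probe reads was not analysed here.

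PLIN2 coats cytoplasmic lipid droplets and is widely used as a marker of lipid loading. Both of its probes were detected on all arrays. Probe ILMN_2138765 gave raw signals of 2982, 3901 and 3326 on the riluzole arrays and 2459, 2579 and 2817 on the vehicle arrays. The log2 levels averaged 11.70 ± 0.11 with riluzole and 11.28 ± 0.16 with vehicle, a log2 difference of 0.42 (95% interval 0.13 to 0.70). Probe ILMN_1801077 gave 1188, 1302 and 1149 on the riluzole arrays and 899, 949.8 and 921 on the vehicle arrays, and its log2 levels averaged 10.14 ± 0.06 with riluzole and 9.69 ± 0.08 with vehicle. Its difference was 0.46 (0.22 to 0.70). The groups did not overlap on either probe, and the 2 probes reported nearly the same size, 1.34-fold and 1.37-fold.

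PDK4, a kinase that inactivates the pyruvate dehydrogenase complex and so spares glucose when fat is burned, has 1 probe, ILMN_1684982. Its raw signals were 239, 225 and 207 on the riluzole arrays and 183, 159.8 and 182 on the vehicle arrays. The groups did not overlap, and the probe was detected on all 6 arrays. The log2 levels were 7.30, 6.95 and 6.87 with riluzole and 6.45, 6.13 and 6.48 with vehicle. The log2 difference was 0.69 (95% interval 0.33 to 1.04), or 1.61-fold. With no background correction it was 0.36.

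CPT1A, the outer membrane carnitine palmitoyltransferase that controls entry of long-chain fatty acids into mitochondria, was dim on all 3 probes. Probe ILMN_1696316 gave raw signals of 191, 169.8 and 183 on the riluzole arrays and 141, 152 and 194 on the vehicle arrays. The third vehicle array exceeded every riluzole array in raw signal, and the log2 difference was 0.39 (95% interval -0.22 to 1.00). Probe ILMN_1710052 gave 0.17 (-0.22 to 0.55), also with overlapping groups. Probe ILMN_1687589 was detected on 0 riluzole arrays and 2 vehicle arrays, with raw signals of 131, 139.8 and 139 on the riluzole arrays and 139.7, 151 and 157 on the vehicle arrays. It did not pass the filter, and no fold is given for it. At this signal the groups were not separated on any CPT1A probe.

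ACADVL is the very long-chain acyl-CoA dehydrogenase of the mitochondrial inner membrane, which catalyses the first step of beta-oxidation. All 3 of its probes were detected on every array. Probe ILMN_1806408 gave raw signals of 6324, 7542 and 7069 on the riluzole arrays and 6085, 5116 and 5796 on the vehicle arrays. Every riluzole array was above every vehicle array, and the log2 difference was 0.35 (95% interval 0.10 to 0.60). Probe ILMN_2263466 gave 445, 527 and 436 on the riluzole arrays and 403, 368 and 387 on the vehicle arrays, again without overlap, and 0.38 (0.13 to 0.63). Probe ILMN_2352009 gave 1384, 1426 and 1598 on the riluzole arrays and 1442, 885 and 1228 on the vehicle arrays. Vehicle replicate 2 was low on this probe and the groups overlapped, with a difference of 0.40 (-0.03 to 0.83). The 3 probes therefore placed ACADVL between 1.28-fold and 1.32-fold higher with riluzole.

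ETFDH passes electrons from the acyl-CoA dehydrogenases, through the electron transfer flavoprotein, to ubiquinone. Its 1 probe, ILMN_1758034, gave raw signals of 807, 1021 and 902 on the riluzole arrays and 730.5, 746 and 782 on the vehicle arrays. The groups did not overlap, and the log2 levels averaged 9.68 ± 0.09 with riluzole and 9.35 ± 0.10 with vehicle. The log2 difference was 0.33 (95% interval 0.07 to 0.58), or 1.26-fold.

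**Figure D3:**
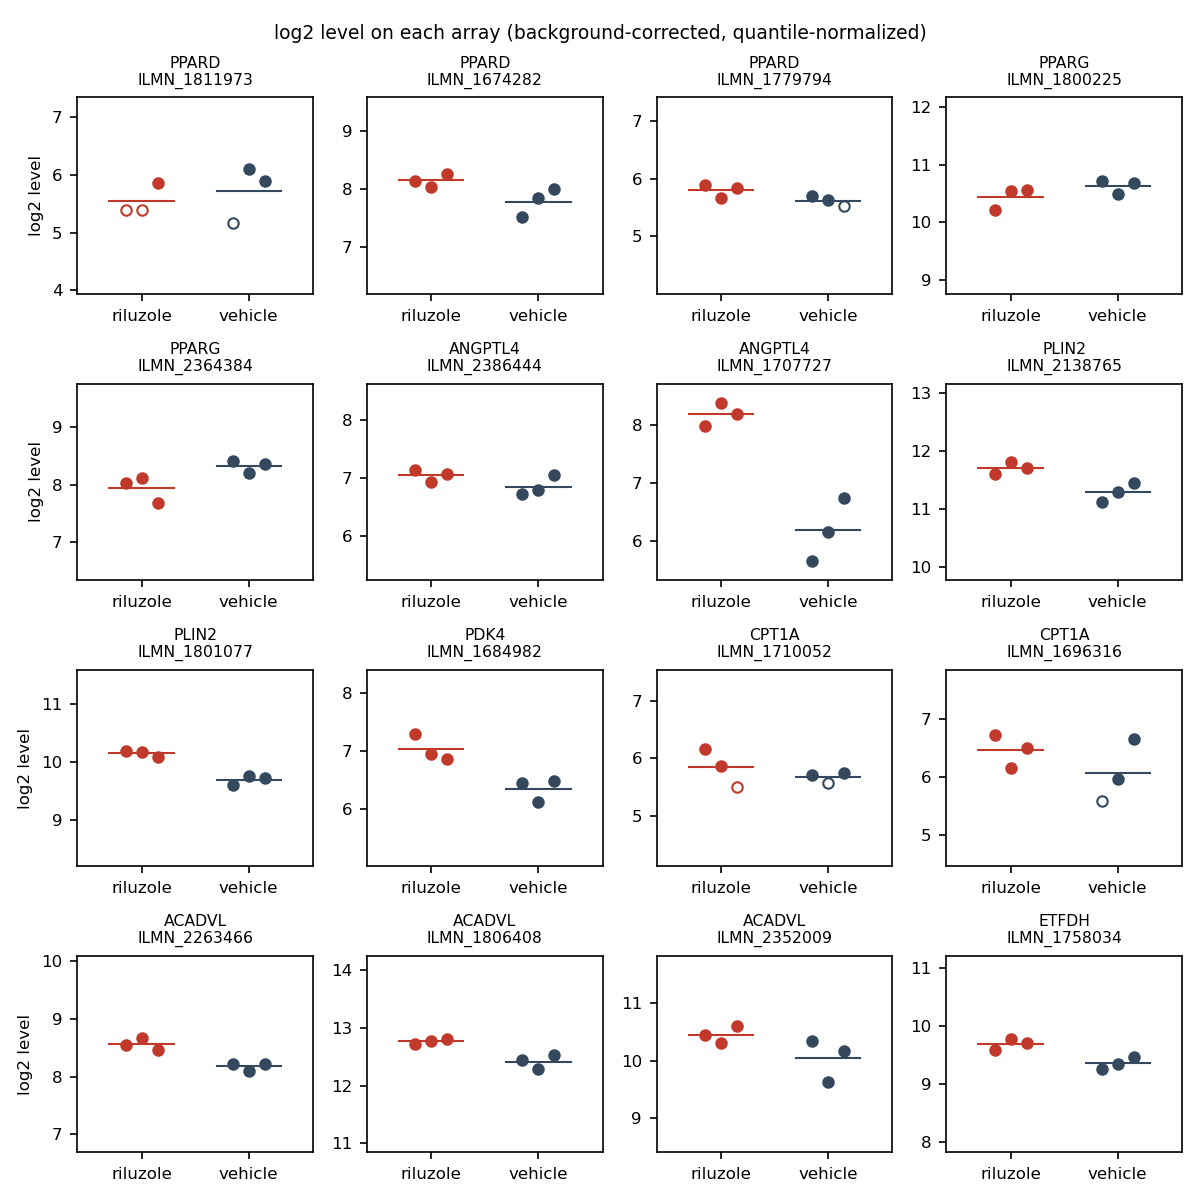
log2 level (y axis, background-corrected and quantile-normalized, all panels spanning the same number of units) of the 16 kept probes on each riluzole and vehicle array. Points are arrays in replicate order, filled where detected, and lines are group means. Both PLIN2 probes, PDK4 and ETFDH show separated groups, whereas both CPT1A panels overlap.

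Over the 16 kept probes, riluzole replicates 1, 2 and 3 were the highest of their group on 6, 5 and 5, and vehicle replicates 1, 2 and 3 on 5, 2 and 9. Vehicle replicate 3 was thus the highest vehicle array on most probes, and it was the lowest on 1.

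The genes around the set were read from 8 lists with none of the 9 genes in them, 127 genes in all, of which 95 had a kept probe. Over their 125 kept probes, 0 rose and 2 fell in limma's fit at an adjusted p under 0.05, or 1.6%, where 0.698% of all kept probes were called. Both probes belong to LIPG, endothelial lipase, an enzyme of the lipoprotein lipase family that acts on phospholipids of lipoproteins. The median log2 difference over the 125 probes was -0.01, close to that of all kept probes. The lists were chosen with earlier results of these data known, so their calls, adjusted p-values and shares are given as a description. With 4 to 38 kept probes per list, a share of 0.698% would leave most lists without a call.

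LIPG fell on both of its probes. Probe ILMN_2189027 gave raw signals of 397, 455 and 428 on the riluzole arrays and 765, 711 and 704 on the vehicle arrays. The log2 levels averaged 8.39 ± 0.06 with riluzole and 9.29 ± 0.04 with vehicle, a difference of -0.90 (95% interval -1.13 to -0.66, limma adjusted p = 0.0145), or 1.86-fold lower. Probe ILMN_1689037 gave 252, 273 and 272 on the riluzole arrays and 418, 396 and 407 on the vehicle arrays, and its difference was -0.83 (-1.07 to -0.60, limma adjusted p = 0.0203), or 1.78-fold lower. The groups were well apart on both probes. Both calls were lost in limma without any 1 array, in fits that called 7 to 23 probes in all, against 145 with all arrays. For ILMN_2189027 the adjusted p was 0.0632, 0.0577 and 0.0751 without riluzole replicate 1, 2 or 3, and 0.0628, 0.0635 and 0.0593 without vehicle replicate 1, 2 or 3. For ILMN_1689037 it was 0.0659, 0.0744 and 0.084, and 0.0694, 0.0691 and 0.0803, in the same order. The difference itself stayed between -0.88 and -0.60 for ILMN_1689037 in every fit, including those with other settings.

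In the same list of ANGPTL family genes and lipases, 4 probes of 3 genes were kept out of 16 probes of 10 genes found, all 4 negative, with a median log2 difference of -0.56. LPL, the lipase that ANGPTL4 inhibits, had a log2 difference of -0.29 on its 1 probe, with raw signals of 270.2, 296 and 275 on the riluzole arrays and 335, 309 and 337 on the vehicle arrays (limma adjusted p = 0.233). The groups did not overlap, but the probe missed the threshold. ANGPTL2 gave -0.05. LIPC, LMF1 and GPIHBP1 were detected on no array.

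Other PPAR targets showed no common direction. Of 38 kept probes from 27 of 38 genes, 0 passed the threshold in limma, 17 were positive and 21 negative, and the median log2 difference was -0.01, where 7 probes had an unadjusted p under 0.05. Over all kept probes, 0.698% were called and 15.6% had such an unadjusted p. The riluzole arrays lay below the vehicle arrays on 11 of the 38 probes and above them on 6, against 10.9% and 11% of all kept probes. The 2 genes with the smallest p were FABP1 and ACSL3. FABP1, the liver fatty acid binding protein, was detected on 1 riluzole array and 3 vehicle arrays and gave -0.73 (limma adjusted p = 0.107). As most of its riluzole arrays were not above background, that size is uncertain, and it was -0.33 with no background correction and -1.10 with the authors' processed values. ACSL3, an acyl-CoA synthetase of lipid droplets, gave -0.42, -0.37 and -0.01 on its 3 probes, the last with a sign that turned with array weights and without riluzole replicate 1 or vehicle replicate 1. Among partners and coregulators of the receptors, 0 of 17 kept probes passed and the median was -0.03, with 2 probes at an unadjusted p under 0.05. RXRB, a partner receptor, gave 0.40 (limma adjusted p = 0.26), and the coactivator NCOA3 gave 0.25 (0.281) and 0.04 (0.95) on its 2 kept probes, the second with a sign that turned without vehicle replicate 3.

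Genes beside ACADVL and ETFDH gave no call either. In the list of the carnitine shuttle, the acyl-CoA dehydrogenases and the electron transfer flavoprotein, 0 of 24 kept probes passed in limma. An unadjusted p under 0.05 was found for 4, which is near the share over all kept probes, 15.6%, of which 0.698% were called. Of the 24, 16 were positive and 8 negative, and the median was 0.05. ETFB, the beta subunit of the electron transfer flavoprotein, was higher by value on both kept probes, at 0.39 (limma adjusted p = 0.147) and 0.46 (0.172), with no overlap between groups on either. CPT1B, the muscle form of the carnitine palmitoyltransferase, gave 0.58 (limma adjusted p = 0.145) and was detected on 3 riluzole arrays and 1 vehicle array. As most of its vehicle arrays were not above background, that size is uncertain too, and it was 0.26 with no background correction and 0.97 with the authors' processed values.

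Beside PDK4, 0 of 11 kept probes for the other pyruvate dehydrogenase kinases, the phosphatases and the complex passed in limma, with 1 at an unadjusted p under 0.05 and a median of -0.05. That probe was PDP1, named PPM2C on the array, the phosphatase that opposes the kinases, at -0.49 (limma adjusted p = 0.164) with non-overlapping groups. The subunit DLAT gave -0.21 (0.489). Beside PLIN2, 0 of 11 kept probes for lipid droplet proteins and lipolysis passed in limma, with 4 at an unadjusted p under 0.05. Of these 11 probes, 7 were positive and 4 negative, between -0.41 and 0.59, with a median of 0.15. Over all kept probes, 0.698% were called and 15.6% had an unadjusted p under 0.05. HILPDA, a hypoxia-induced lipid droplet protein named C7orf68 on the array, gave -0.41 (limma adjusted p = 0.154). The 2 probes of MGLL, monoacylglycerol lipase, disagreed in sign, with -0.28 and 0.34.

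The lists for other known inducers of ANGPTL4 held no call, where 0.698% of all kept probes were called. With so few probes that says little about the inducers, whose part was not tested. Of 10 kept probes of hypoxia genes, 0 passed in limma, 1 had an unadjusted p under 0.05 and the median was 0.03. VEGFA, the angiogenic growth factor, gave 0.59 (limma adjusted p = 0.185) and 0.34 (0.47) on its 2 probes, and ANKRD37 gave -0.22 (0.383). The list of the glucocorticoid receptor and its targets had 10 kept probes from 6 genes. Of these probes, 0 passed in limma, 2 were positive and 8 negative, and the median was -0.32. An unadjusted p under 0.05 was found for 7 of the 10, against 15.6% of all kept probes. Both kept TSC22D3 probes and the 3 SGK1 probes are among these 7, so the count repeats genes. The riluzole arrays lay below the vehicle arrays on 5 of the 10 and above them on 1, against 10.9% and 11% of all kept probes. The 3 SGK1 probes and 1 TSC22D3 probe are among these 5. TSC22D3, a glucocorticoid-induced leucine zipper protein, gave -0.33 (limma adjusted p = 0.194) and -0.38 (0.252). The kinase SGK1 gave -0.29, -0.34 and -0.32 on its 3 probes, each without overlap between groups on the log2 scale.

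**Figure D4:**
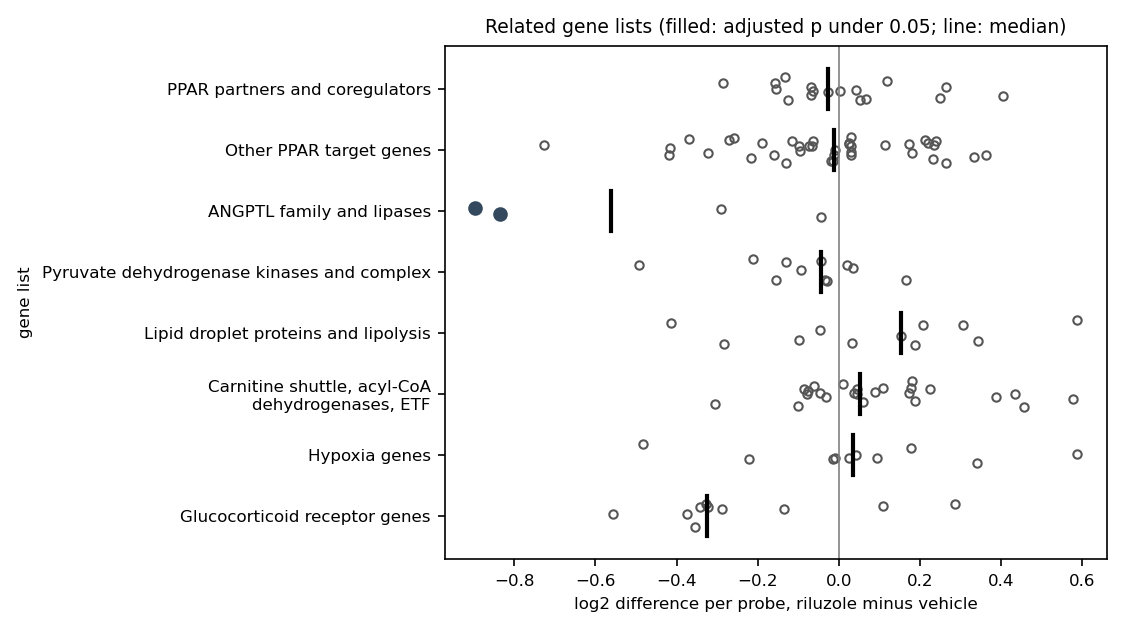
log2 difference (riluzole minus vehicle, x axis) of each kept probe in the 8 lists (y axis), with points spread vertically for legibility. Filled points mark probes at an adjusted p under 0.05 in limma and black lines mark list medians. The 2 filled points are the LIPG probes, at -0.90 and -0.83, and the median of the other PPAR target genes lies at -0.01.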

How the data were processed

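Total RNA of 6 samples was isolated by QIAGEN RNeasy Plus and made into biotinylated cRNA with the Illumina TotalPrep-96 kit, per the labels' protocols. No label or header names the array model or the scanner software. The authors deposited a linear signal intensity per probe, per the file headers an average bead signal, with no background subtraction or scaling, and beside it a detection p-value, the rank of the probe among the negative controls. The authors also deposited processed intensity values made in a way that no label or header states. They are linear and not centred, hold values below 0 and run in the direction of the raw signal, with medians of 20.7 to 21.7 per array, and their scale factor stays unknown.

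After removal of 979 control rows, the deposited intensities went through the neqc steps of limma 3.58.1 under R 4.3.3 (normexp background correction from the detection p-values, offset of 16, quantile normalization, log2). The offset draws folds of dim probes toward 1. Probes detected (p under 0.05) on 3 or more of the 6 arrays, 20788 of 47231, were kept, and group was fitted with lmFit and eBayes, with Benjamini-Hochberg adjustment over all of them. Symbols were updated with RefSeq names of GRCh38.p14: 27036 probes had a current name, 4626 were renamed, 12245 kept the array's name and 3324 were unnamed. The code was tested on simulated data. Members and lists were chosen with earlier results of these data known. Every member probe is named, as are, per list, up to 4 genes past the threshold or otherwise the 2 with the smallest p, and the 5 profiles closest to ANGPTL4. LPL, ANGPTL2, LIPC, LMF1 and GPIHBP1 fall outside this rule and were named after their values were seen. Alternatives covered background correction, scaling, the authors' processed values, the detection filter, the variance model, array weights, a block for replicate number, 1 probe per gene and leaving out each array.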

Additional observations from a re-analysis of the deposited data

How the results depend on the processing

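Of 16 member probes, 0 changed sign in any alternative that kept them. The ANGPTL4 probe ILMN_1707727 passed the threshold in 7 of 8 alternatives that kept all arrays, all but the authors' processed values, and in 2 of 6 that left out an array, the PLIN2 probes in 2 of 9 and 3 of 8 alternatives with all arrays, PDK4 in 1 of 9 and ACADVL probe ILMN_1806408 in 1 of 9. The number of probes past the threshold was 145, and it was 684 with no background correction, 47 with the authors' processed values, 78 when undetected probes stayed in, 405 when every array had to reach a detection p of 0.01, 758 with an intensity trend and robust variance, 15 with the replicate block, and 7 to 23 without 1 array. The list probes past the threshold numbered 2, and 7 with no background correction, 7 with an intensity trend and robust variance, 0 with the replicate block (LIPG adjusted p in limma 0.082 and 0.0936), 1 with 1 probe per gene, and 0 to 0 without 1 array. Of the named list probes, ACSL3 probe ILMN_1654414 turned positive with array weights (0.0265) and without 1 array (riluzole replicate 1, 0.081, or vehicle replicate 1, 0.03, in a range of -0.11 to 0.081), and NCOA3 probe ILMN_2347693 turned negative without vehicle replicate 3 (-0.17, in a range of -0.17 to 0.091). The cause of these moves was not tested. The labels number the samples 1 to 3 in each group, but deviations of same-numbered samples correlated at -0.13, -0.097, -0.00018, so the numbers were not taken to pair the samples. The number of arrays limits precision, and differences of probes near the negative controls are uncertain in size.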
